A study of Mus musculus with 6 samples.

Results

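The genes examined here encode 6 ligands of the bone morphogenetic protein (BMP) family, Bmp2, Bmp4, Bmp5, Bmp6, Bmp7 and Gdf10, and 3 of the receptors that bind such ligands, Bmpr1a, Bmpr2 and Acvr1. Their transcripts were compared between wild-type and Lmx1b-null hindlimb buds. All probe sets whose platform annotation gave exactly 1 symbol equal to one of these 9 genes were taken, which made 22 of the 45037 probe sets tested, 10 for ligands and 12 for receptors. The array had 1 probe set each for Bmp2, Bmp4, Bmp6 and Gdf10, 3 each for Bmp5, Bmp7, Bmpr2 and Acvr1, and 6 for Bmpr1a. A probe set is a group of oligonucleotides on the array that are read together as 1 value. Which part or which transcripts of its gene each probe set reads was not known here.

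BMPs are secreted dimers of the TGF-beta superfamily. They bring together type I and type II receptor kinases, and the type I receptor then phosphorylates SMAD proteins that enter the nucleus with SMAD4. In the limb bud BMPs act in the apical ectodermal ridge, in ventral ectoderm and in mesenchyme, where they take part in dorsoventral patterning, regression of the ridge, cartilage condensation and cell death. LMX1B is the LIM homeodomain transcription factor that gives limb mesenchyme its dorsal fate.

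The study asked which genes LMX1B controls in the developing mouse hindlimb. There were 3 wild-type and 3 Lmx1b -/- pools, all from 129Sv embryos at E11.5 (midgestation) and all untreated as far as the labels say. Each pool joined both hindlimb buds of 3 embryos, 6 buds in all, and about 500 µm of proximal tissue was used per bud. The labels do not say which Lmx1b allele was used, and a whole bud segment mixes mesenchyme, ectoderm, vessels, muscle precursors and nerves. In such bulk tissue fewer cells of a type and less RNA per cell cannot be told apart.

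Levels are log2 values after RMA (robust multi-array average: background correction, normalization between arrays and summary over the probes of a set). Each change is the null mean less the wild-type mean on that scale, with the standard error (SE) and 95% interval of a limma fit, and adjusted p-values are Benjamini-Hochberg values over all 45037 probe sets. Levels of different probe sets are compared only for the near-background limit below and to name a gene's brightest probe set. Probes differ in brightness, so both uses are rough. A probe set was called near background when its mean was at or under 4.65, the 90th percentile of 35 probe sets for 19 genes not expected in a limb bud, such as rhodopsin and insulin. By that limit 4 of the 22 probe sets were near background, 1 of Bmp5, the only one of Bmp6, 1 of Bmpr1a and 1 of Bmpr2.

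The targeted transcript checked the labels: the brighter Lmx1b probe set gave 8.02, 7.58 and 8.17 in wild-type pools 1, 2 and 3, against 4.62, 4.23 and 4.57 in the null pools (limma adjusted p = 0.000544). Its dimmer probe set was near background in all 6 pools and checks nothing. The arrays were closely alike, with correlations over all probe sets from 0.993 to 0.997. The pools differed in the transcript of Xist, which is made from the inactive X chromosome of female cells: it read 4.68, 9.88 and 4.72 in wild-type pools 1, 2 and 3, against 9.66, 9.16 and 10.79 in the null pools. Wild-type pools 1 and 3 thus stood apart from the other 4 pools in this measure, and values with it as a covariate are given below for several genes. Xist level and genotype are partly confounded, since wild-type pool 2 was the only wild-type pool as high as the null pools. The covariate fit therefore cannot separate the 2 well, and its SEs are wider. For Gdf10 the SE was 0.22 against 0.15 without the covariate, and for Bmp2 0.28 against 0.21.

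Among all BMP ligand and receptor probe sets, 0 of 22 passed an adjusted p of 0.05, against 38 of all tested probe sets, or 0.0844%. At an unadjusted p under 0.05 there were 4, those of Bmp4, Bmp6 and Gdf10 and 1 of Acvr1, which is 18.2% of the 22 against 9.41% of all tested probe sets. The 3 null values lay wholly outside the 3 wild-type values in 6 of the 22, or 27.3%, against 14.4% of all tested probe sets. These were the same 4 with 1 probe set each of Bmpr1a and Bmpr2. The median change of the 22 was 0.031 and that of all probe sets 0.014, and 17 of the 22 changed by less than 0.2 in either direction. Among the probe sets that did pass, the smallest change was 0.51 in size, which Gdf10 alone of the 22 exceeded.

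**Figure D1:**
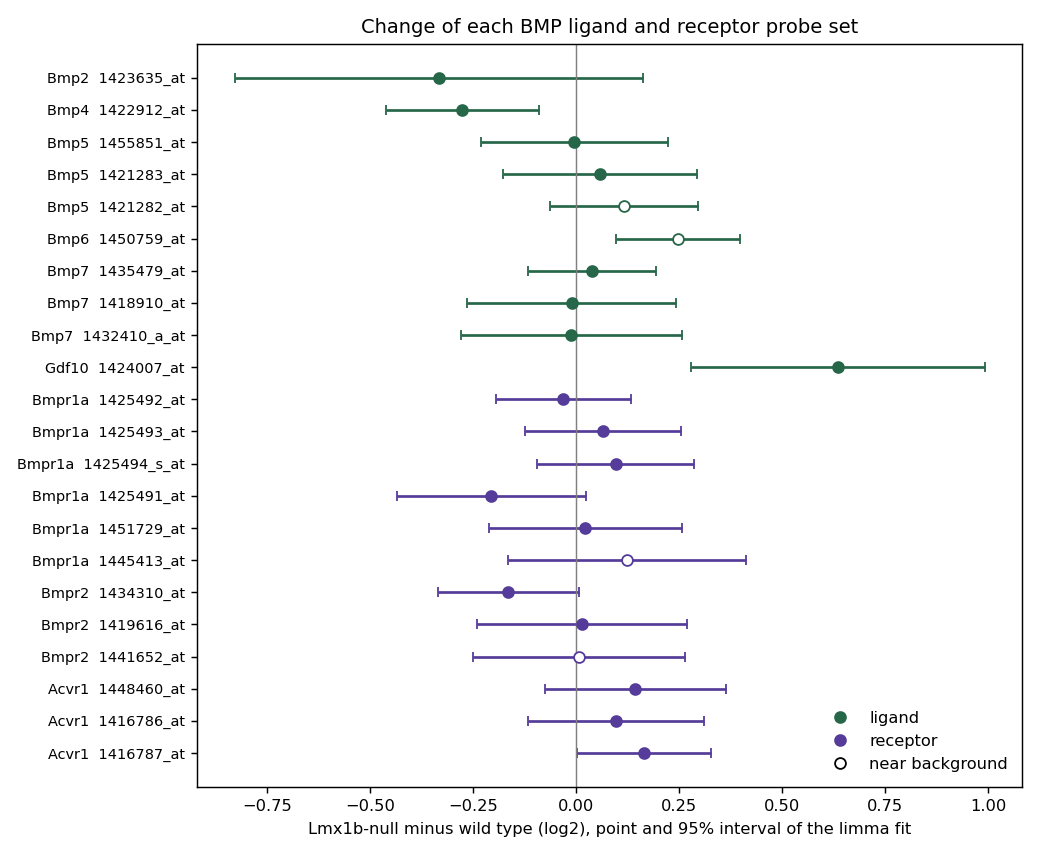
Change of each of the 22 probe sets (x axis, Lmx1b-null minus wild type, log2) with the 95% interval of the limma fit, for ligands in green and receptors in purple; open points are near background. Gdf10 lies farthest to the right at 0.64 and Bmp2 farthest to the left at -0.33 with the widest interval, while most receptor probe sets sit within 0.2 of 0.

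The sequence just upstream of Bmp4 and Gdf10 is shown first, since these are the 2 ligands above background whose pools did not overlap, one lower and the other higher in null pools. The 250 bases before each RefSeq start site (GRCm38.p6) are printed 5′ to 3′ along the gene's own strand. Capitals mark TAAT, the core bound by many homeodomain proteins, searched on both strands.
Bmp4, minus strand, chr14:46390670-46390919: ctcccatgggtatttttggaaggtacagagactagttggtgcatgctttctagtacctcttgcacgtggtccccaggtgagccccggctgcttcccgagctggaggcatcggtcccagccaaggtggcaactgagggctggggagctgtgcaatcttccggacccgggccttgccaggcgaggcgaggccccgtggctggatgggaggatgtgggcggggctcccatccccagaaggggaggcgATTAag
Gdf10, plus strand, chr14:33923337-33923586: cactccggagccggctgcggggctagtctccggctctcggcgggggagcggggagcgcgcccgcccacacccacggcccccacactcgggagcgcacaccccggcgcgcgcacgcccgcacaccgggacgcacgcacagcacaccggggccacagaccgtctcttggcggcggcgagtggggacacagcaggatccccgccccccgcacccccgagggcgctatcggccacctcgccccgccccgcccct

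The Bmp4 window held 1 TAAT core, on the reverse strand and starting 6 bases before the start site, and the Gdf10 window held 0. Of the other windows found for the 9 genes, only that of Bmp5 held such a core, starting 45 bases before the start site. Such a core was present in 54.9% of the 32851 windows of the same length in the table. The longer palindrome TAATTA, which contains TAAT and is a common LIM homeodomain core, was in 4.84% of all windows and in none of the 7 windows found for the 9 genes. A second palindrome, GGCGCC, a GC-rich SMAD motif, was in 9.59% of all windows and in those of Bmpr1a and Bmpr2 alone among the 7. GC content was 63.2% in the Bmp4 window and 78.8% in that of Gdf10, against a median of 52.4%. These matches describe letters in a short window only, and other promoters or distant enhancers were not examined.

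Gdf10 encodes a divergent ligand, also named BMP3B, that groups with BMP3 rather than with the BMPs that drive bone formation. It read 5.98, 6.53 and 6.63 in wild-type pools 1, 2 and 3, against 6.97, 7.06 and 7.02 in the null pools. All 3 null pools were above all 3 wild-type pools, and wild-type pool 1 was the lowest of all. Group means were 6.38 ± 0.35 for wild-type and 7.02 ± 0.05 for null pools (SD, n = 3), giving a change of 0.64, 1.55-fold higher (SE 0.15, 95% interval 0.28 to 0.99), which did not pass over all probe sets (limma adjusted p = 0.278, unadjusted 0.00341). Without wild-type pool 1 the change was 0.44 (adjusted p = 0.161), and with Xist as a covariate it was 0.50 (adjusted p = 0.821).

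Bmp4 encodes a ligand made in limb mesenchyme and in the apical ridge that takes part in ridge formation and later in cartilage and digit patterning. In these arrays Bmp4 stood at 8.62, 8.51 and 8.71 in wild-type pools 1, 2 and 3, against 8.43, 8.34 and 8.24 in the null pools. Every null pool was below every wild-type pool, though the nearest pair, wild-type pool 2 and null pool 1, were close. The mean was 8.61 ± 0.10 in wild-type and 8.34 ± 0.09 in null pools (SD, n = 3), a change of -0.28, 1.21-fold lower (SE 0.081, 95% interval -0.46 to -0.09). This did not pass over all probe sets (limma adjusted p = 0.370, unadjusted 0.00904). With 1 pool left out the change ran from -0.33 to -0.23, and with Xist as a covariate it was -0.17 (limma adjusted p = 0.901, unadjusted 0.159).

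Bmp2 encodes the closest relative of BMP4, a ligand known for promoting cartilage and bone. Bmp2 stood at 6.09, 6.99 and 6.93 in wild-type pools 1, 2 and 3, against 6.34, 6.40 and 6.26 in the null pools. Wild-type pools 2 and 3 were above all null pools, while wild-type pool 1 was below all of them. The wild-type SD was therefore 0.50 against 0.067 in null pools, and the change of -0.33 (SE 0.21, 95% interval -0.83 to 0.16) did not pass (limma adjusted p = 0.663). The value turned on wild-type pool 1, without which the change was -0.62 (SE 0.077), or just short of the threshold (limma adjusted p = 0.0573). Without wild-type pool 2 it was -0.17 and without wild-type pool 3 -0.20 (adjusted p = 0.901 and 0.791), and with Xist as a covariate it was -0.61 (adjusted p = 0.835).

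Bmp5, Bmp6 and Bmp7 encode a closely related subgroup of ligands. BMP5 is the product of the short-ear locus and shapes cartilage elements, BMP6 is best known for its part in iron balance, and BMP7 acts in kidney, eye and limb. The brightest Bmp7 probe set, 1435479_at, stood at 7.25, 7.28 and 7.39 in wild-type pools 1, 2 and 3, against 7.34, 7.32 and 7.38 in the null pools, so the groups overlapped. The change was 0.039 with a 95% interval from -0.12 to 0.19, which leaves room for changes up to that size. Its other probe sets, 1418910_at and 1432410_a_at, had changes of -0.011 (95% interval -0.26 to 0.24) and -0.012 (-0.28 to 0.26).

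Bmp5 was likewise alike in both groups. Its brightest probe set, 1455851_at, read 6.05, 6.27 and 6.33 in wild-type pools 1, 2 and 3, against 6.16, 6.36 and 6.12 in the null pools. Low and high pools were found in both genotypes, and the change was -0.0040 (95% interval -0.23 to 0.22). The other Bmp5 probe sets changed by 0.059 (1421283_at) and by 0.12 (1421282_at, near background), and neither passed (limma adjusted p = 0.893 and 0.676).

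Bmp6 read 3.73, 3.82 and 3.83 in wild-type pools 1, 2 and 3, against 4.05, 4.08 and 3.99 in the null pools. The null pools were all higher, and the change of 0.25 (SE 0.065, 95% interval 0.10 to 0.40) did not pass (limma adjusted p = 0.313, unadjusted 0.00536). With 1 pool left out it stayed between 0.22 and 0.27. All 6 values were near background, under the level of 4.65 given above, where RMA values carry little signal, so whether Bmp6 was transcribed in this tissue cannot be read from them.

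**Figure D2:**
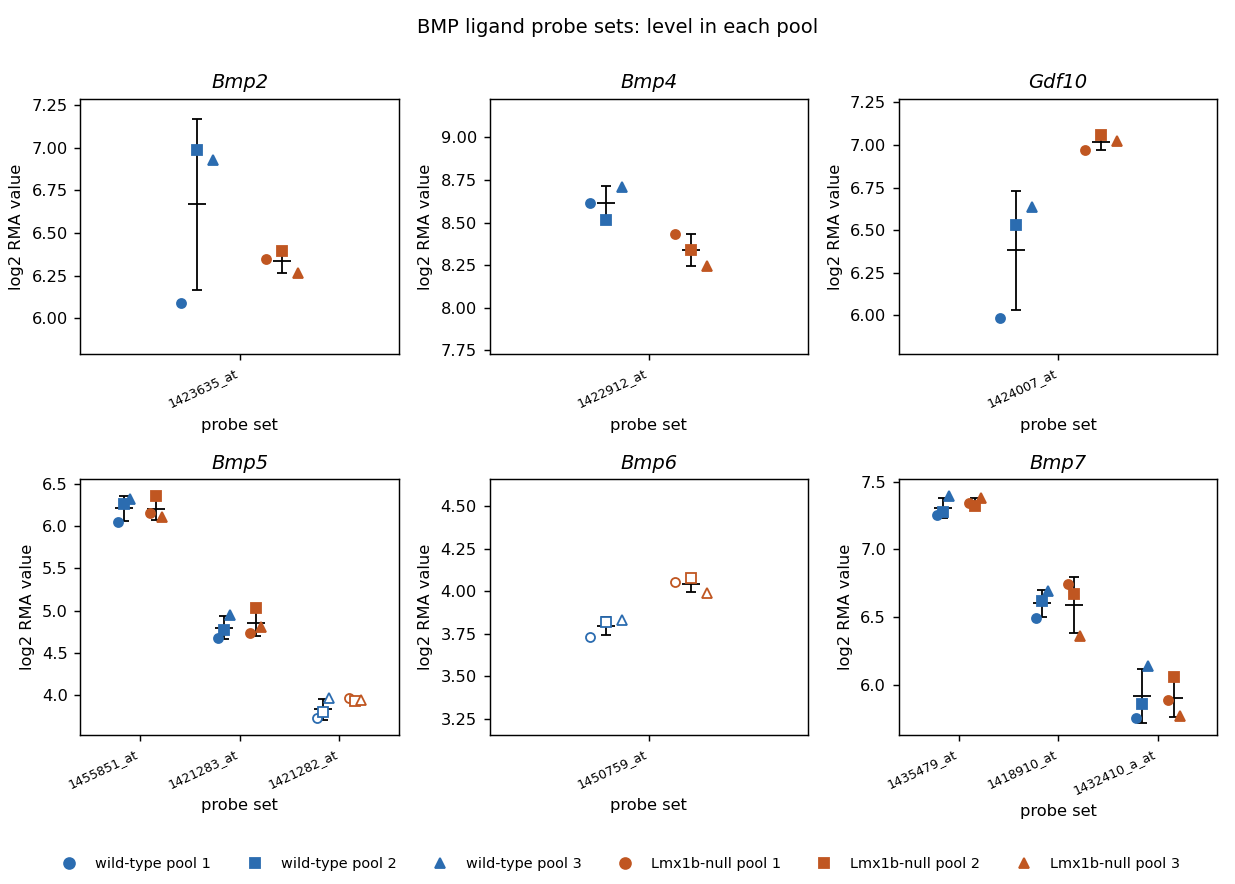
Level of each ligand probe set (y axis, log2 RMA value) in the 3 wild-type pools (blue) and 3 Lmx1b-null pools (orange), with the pool number given by the symbol; black bars are the mean and SD of 3 pools and open symbols are near background. The Gdf10 values of the null pools, 6.97 to 7.06, lie above all wild-type values, the Bmp4 values of the null pools, 8.24 to 8.43, lie below them, and wild-type pool 1 of Bmp2 at 6.09 lies apart from the other wild-type pools.

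Among the receptors, changes ran from -0.21 to 0.16. Bmpr1a encodes the type I receptor ALK3, through which BMPs signal in both limb ectoderm and mesenchyme. The brightest of its 6 probe sets, 1425492_at, read 9.47, 9.38 and 9.47 in wild-type pools 1, 2 and 3, against 9.32, 9.48 and 9.42 in the null pools. These overlapped, with a change of -0.031 (95% interval -0.20 to 0.13). One other probe set, 1425491_at, had all null pools below the wild-type ones: 7.54, 7.19 and 7.22 in wild-type pools 1, 2 and 3, against 7.08, 7.12 and 7.13 in the null pools. Its change of -0.21 (SE 0.099; limma adjusted p = 0.563) owed much to wild-type pool 1, and without that pool it was -0.094; with Xist as a covariate it was -0.091. The remaining 4 Bmpr1a probe sets had overlapping pools and changes from 0.023 to 0.12. Of these, 1425493_at and 1425494_s_at stayed above 0 under every alternative, at 0.026 to 0.14 and 0.038 to 0.17. The direction of the others was not firm: with Xist as a covariate 1451729_at changed by -0.15 and the near-background 1445413_at by -0.031. The change of 1451729_at was also below 0 with array weights (-0.021) and without wild-type pool 1, wild-type pool 3 or null pool 3, from -0.062 to -0.0075. The brightest probe set, 1425492_at, turned to 0.027 with Xist as a covariate.

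Bmpr2 encodes the type II receptor dedicated to BMPs. Its brightest probe set, 1434310_at, read 9.51, 9.55 and 9.40 in wild-type pools 1, 2 and 3, against 9.23, 9.35 and 9.39 in the null pools. The null pools were all lower, but null pool 3 and wild-type pool 3 were almost level. The change was -0.16 (SE 0.074, 95% interval -0.34 to 0.0073; limma adjusted p = 0.545), while the other probe sets, 1419616_at and the near-background 1441652_at, were at 0.015 and 0.0071. With Xist as a covariate the changes were -0.23, -0.033 and 0.056 in the same order.

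Acvr1 encodes the type I receptor ALK2, which carries signals of the BMP7 subgroup among others. All 3 of its probe sets had changes above 0. The brightest, 1448460_at, read 7.82, 8.06 and 8.17 in wild-type pools 1, 2 and 3, against 8.17, 8.20 and 8.12 in the null pools, so wild-type pool 1 alone was low. The change was 0.14 (95% interval -0.077 to 0.36), and 0.044 without that pool. The dimmest, 1416787_at, read 5.01, 5.09 and 5.11 in wild-type pools 1, 2 and 3, against 5.24, 5.15 and 5.31 in the null pools, which did not overlap, with a change of 0.16 (SE 0.071; limma adjusted p = 0.529, unadjusted 0.0478). The third, 1416786_at, changed by 0.096 (adjusted p = 0.784). With Xist as a covariate the changes were 0.11, 0.12 and 0.20 in the same order, and that of 1416787_at no longer had an unadjusted p under 0.05 (limma unadjusted p = 0.274). The same was so with an intensity trend (0.0872), array weights (0.0502), median centring (0.0631) and the pool number as a block (0.0825). The robust option, repeated quantile normalization and a filter on level kept it under 0.05. With 1 pool left out it was under 0.05 only without null pool 2 (limma unadjusted p = 0.0307).

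**Figure D3:**
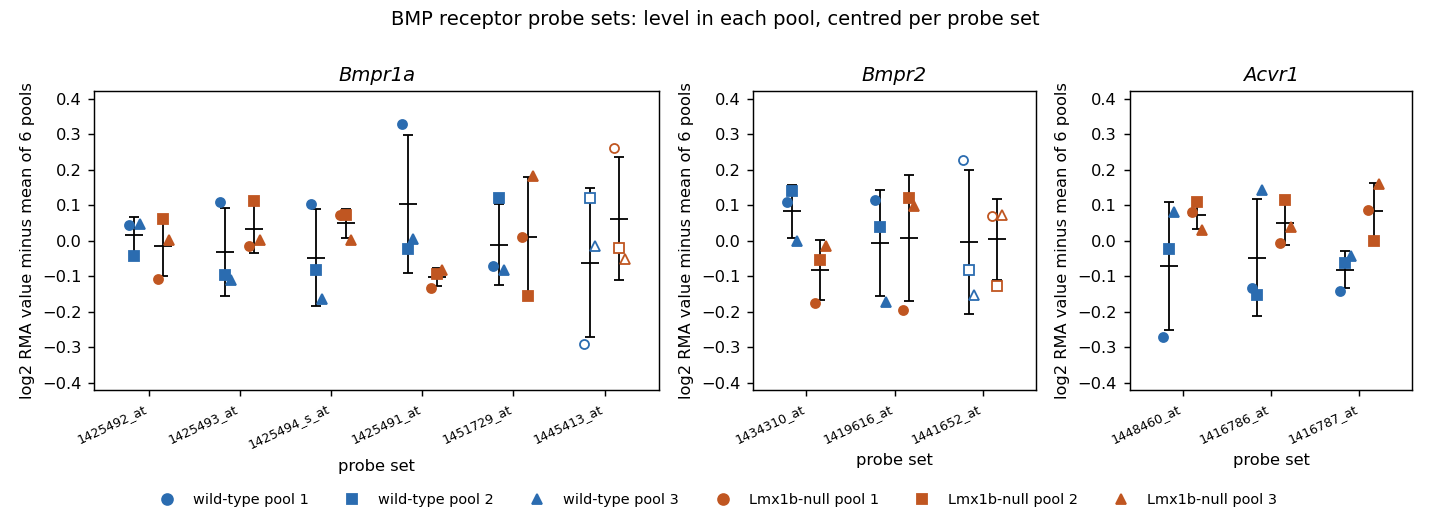
Level of each receptor probe set in each pool (y axis, log2 RMA value minus the mean of that probe set over the 6 pools), with wild-type pools in blue, null pools in orange, mean and SD as black bars and near-background probe sets as open symbols. Groups separate in Bmpr1a 1425491_at, Bmpr2 1434310_at and Acvr1 1416787_at, with changes of -0.21, -0.16 and 0.16, and overlap in the other 9 probe sets.

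The members' changes were set beside markers of the other tissues in the buds, each list scored per pool as the mean of its genes' log2 levels after centring on the 6 pools. The ridge and ectoderm list, with 17 of 18 genes higher in null pools and 3 near background, scored -0.20 to -0.0071 in wild-type and 0.046 to 0.091 in null pools, without overlap, as did Gdf10. The endothelial list, with 0 of 15 genes higher and none near background, scored 0.0032 to 0.22 in wild-type and -0.13 to -0.064 in null pools, without overlap and in the direction of Bmp4. Wild-type pool 1, the lowest pool for Gdf10 and Bmp2, was also the lowest for limb muscle, at -0.48 against -0.087 to 0.24 in the other 5 pools, for nerve and glia, at -0.37 against -0.056 to 0.20, for ectoderm, at -0.20, and for macrophages, at -0.17. In the cartilage list, as in Bmp2, wild-type pools 2 and 3 stood apart, at 0.24 each against -0.15 to -0.080 in wild-type pool 1 and the null pools. What part these tissues had in the BMP values was not tested.

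Lists that mark position along the limb overlapped between the groups. The distal list of 10 genes scored -0.0016 to 0.11 in wild-type and -0.21 to 0.20 in null pools, and the proximal list, of which 9 of 10 genes were measured, 0.024 to 0.040 and -0.20 to 0.081. Hypoxia and glycolysis genes were high in wild-type pool 3 only, at 0.69 against -0.22 to -0.057 elsewhere. Leaving that pool out gave 0.76 for Gdf10 and -0.23 for Bmp4. The remaining lists overlapped between the groups too, with group differences of 0.23 for nerve and glia, 0.050 for red cells and 0.042 for macrophages. Larger differences, also with overlap, were 0.32 for limb muscle, -0.31 for hypoxia and glycolysis and -0.24 for cartilage. In limb muscle 14 of 15 genes were higher in null pools, and in cartilage 12 of 15 were lower. The cartilage value leaned on Cnmd (-1.76) and Hapln1 (-0.76). The next largest fall was that of Sox5 (-0.295), and Sox9 and Col2a1 were at -0.19 and 0.0068. Of the cartilage genes 1 passed the gene-level limma threshold, lower in null pools. The ectoderm and endothelial lists differed by 0.15 and -0.20.

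**Figure D4:**
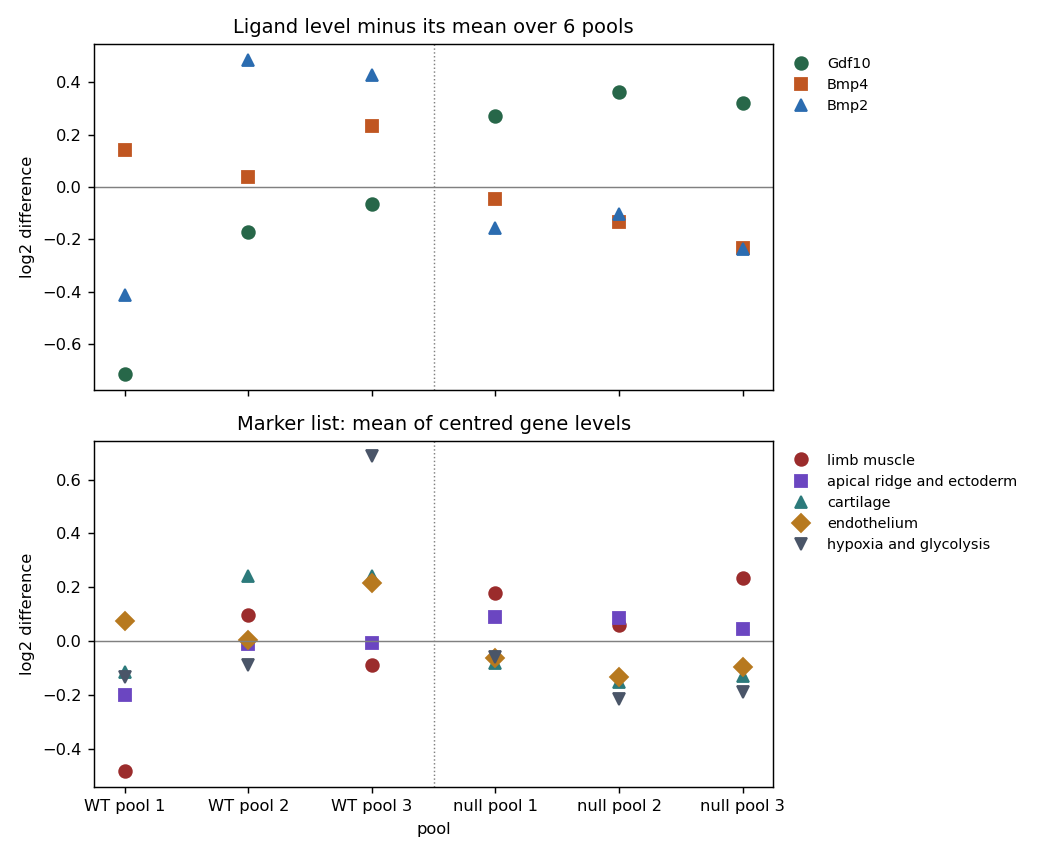
Upper panel: level of Gdf10, Bmp4 and Bmp2 in each pool minus the gene's mean over the 6 pools (log2). Lower panel: score of 5 marker lists in the same pools (mean of centred log2 levels). Wild-type pool 1 is lowest for Gdf10, for Bmp2 and for the muscle list (-0.48), and the ectoderm scores of the null pools, 0.046 to 0.091, lie above all wild-type scores.

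**Figure D5:**
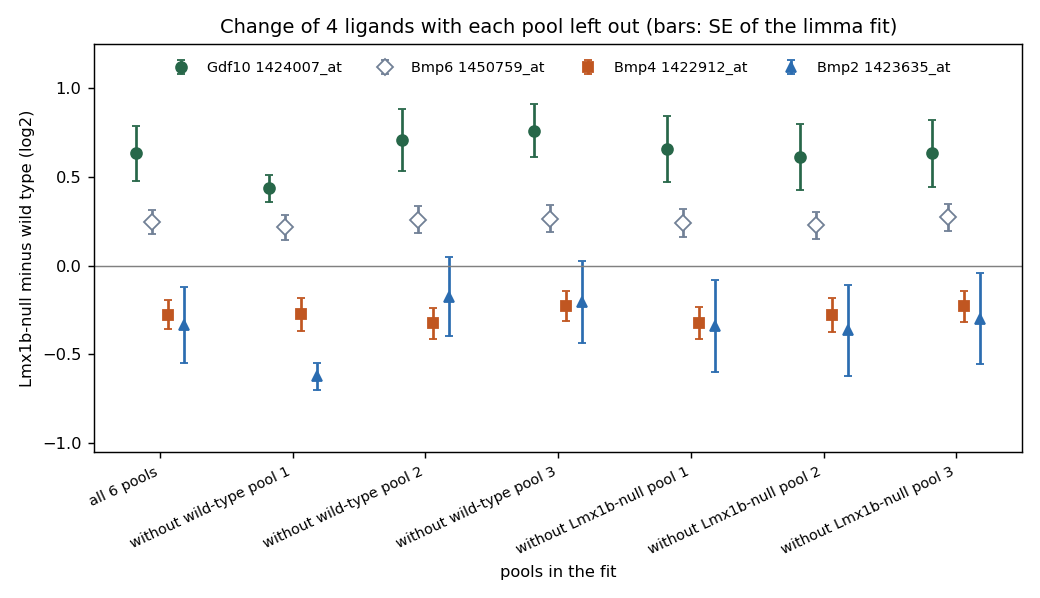
Change of 4 ligands (y axis, Lmx1b-null minus wild type, log2, with the SE of the limma fit) with all 6 pools and with each pool left out in turn (x axis); the open symbols of Bmp6 are near background. Each ligand kept its sign throughout, with Gdf10 between 0.44 and 0.76 and Bmp2 between -0.62 and -0.17.

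The rest of the pathway was read at 1 probe set per gene, the brightest, with p-values adjusted over 18193 genes. Of 63 measured pathway genes outside the 9, 1 passed, lower in null pools, against 0.104% of all genes, and 12 had an unadjusted p under 0.05, against 9.8% of all genes. The one that passed was Grem1, which encodes the secreted antagonist Gremlin that binds BMP2, BMP4 and BMP7. Grem1 fell from 6.44 ± 0.02 to 5.84 ± 0.06 (SD, n = 3; change -0.61, limma adjusted p = 0.0177). That call held without wild-type pool 1 (limma adjusted p = 0.0349) but was lost without any other single pool (0.0697 to 0.0888) and with Xist as a covariate (0.260), while the change itself stayed between -0.64 and -0.58.

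Among the 17 measured secreted antagonists and modulators the other 16 did not pass, and the list's median change was 0.0058 against 0.017 for all genes. Of the 17, 5 had an unadjusted p under 0.05 by limma, or 29.4% against 9.8% of all genes. Nog (-0.53), counted among the 5, was near background and its pools overlapped. Those with the smallest p after Grem1 were Chrdl1 (-0.53), Fst, which encodes follistatin (0.46), and Sostdc1 (0.52), with limma adjusted p from 0.165 to 0.420. For Fst and Sostdc1 wild-type pool 1 was the lowest pool, at 5.70 and 7.07. In wild-type pools 2 and 3 Fst stood at 6.19 and 6.22 and Sostdc1 at 7.83 and 7.68. Of the other 9 measured ligand genes 0 passed, and 4 had an unadjusted p under 0.05, or 44.4% against 9.8% of all genes. They were the joint ligand gene Gdf5 (-0.88), Gdf3 (0.16), Bmp8b (0.22) and Gdf9 (0.17), with limma adjusted p from 0.314 to 0.507. Gdf3, Bmp8b and Gdf9 were dim, with means over the 6 arrays of 4.80, 4.83 and 5.18, not far above the near-background limit of 4.65. Of the 19 genes not expected in a limb bud, 4 also had an unadjusted p under 0.05 by limma, or 21.1%. All 4 were higher in null pools, so small rises in dim genes were found there too. Like Bmp2, Gdf5 was lower in wild-type pool 1 than in the other wild-type pools, and without that pool it was called.

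Of 11 other receptors and co-receptors 0 passed and 0 had an unadjusted p under 0.05 by limma, the only tool run. Bmpr1b, which encodes a type I receptor used in forming cartilage, had a change of -0.076 from 6.76 ± 0.14 in wild-type to 6.68 ± 0.09 in null pools (SD, n = 3). Hjv (0.32) and Acvrl1 (-0.20), both near background, and Rgmb (0.087) had the smallest p of that list (limma adjusted p from 0.568 to 0.746).

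Downstream, 0 of 8 SMAD and SMURF genes passed and 0 had an unadjusted p under 0.05, with Smurf1 (0.13), Smad7 (0.14), Smad6 (-0.13) and Smad1 (0.071) the nearest. Of the 4 proprotein convertase genes, whose enzymes cut BMP precursors, 0 passed, and Furin was at 0.11. The 14 response genes had 0 past the threshold and 3 with an unadjusted p under 0.05, or 21.4% against 9.8% of all genes. These were Dlx5 (0.92), Tbx3 (0.26) and Atoh8 (-0.16). For Dlx5 wild-type pool 1 was the lowest pool, at 5.79 against 6.39 and 6.64 in wild-type pools 2 and 3. Id4 was at -0.19. The classical readouts Id1, Id2 and Id3 were at -0.11, -0.035 and 0.011, and Msx1 and Msx2 at 0.039 and -0.035.

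The genes most like the members over the 6 arrays were searched among 11670 genes above background, by Pearson r as a description. The arrays share the group difference, and among so many genes high values are found at 6 arrays. Nearest to Gdf10 were Frmd4a (r = 0.998), Fxyd6 (0.996) and Gab2 (0.994), and nearest to Bmp4 were Wdr1 (0.992), Dnajc27 (0.973) and Mrps14 (0.972). Bmpr2 was matched by Snx4 (0.999), Xpo1 (0.990) and Trps1 (0.987), and Bmp6 by Rnd2 (0.994), B3glct (0.993) and Pick1 (0.991). Of these 12 genes 0 passed the gene-level threshold, with limma adjusted p of 0.231 or more.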

How the data were processed

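The deposited log2 values are 1 per probe set and array, made by the authors with RMA, per the submitters' processing notes (version: not given in the sources used here). Their log base was taken from the range, 1.77 to 13.72. RMA evens out the arrays' distributions, so a shift of most transcripts would not be seen, and it compresses folds near background. Of 45101 probe sets, 64 controls were left out. Symbols came from the platform annotation (34945 probe sets with 1 symbol, 932 with several, 9160 with none); RefSeq (GRCm38.p6) matched 34741 and changed 0 symbols.

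The genotypes were set against each other by limma 3.58.1, run under R 4.3.3 (lmFit and eBayes, two-sided), with pools as replicates; an exact permutation test of 3 against 3 cannot go below 0.1. Scripts were tested on simulated data. The median SE was 0.084, limited by the number of arrays. The members and lists were chosen with earlier results of these data known. Named genes were all members, pathway genes that passed or up to 4 per list with the smallest p, and the 3 genes most like each member with separated pools. Bmpr1b, Nog, the Id and Msx genes and the cartilage genes were named after their values were seen. Alternatives changed the variance model, array weights, scaling, level filter, replicate block, Xist covariate, probe sets, threshold and pools. Deviations from the group means correlated at -0.24, -0.088 and -0.17 between pools of the same number. Pools of different numbers were not compared in this way, so these values cannot settle whether pools were paired. The main fit treated them as unpaired.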

Additional observations from a re-analysis of the deposited data

How the results depend on the processing

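The count of 0 member probe sets past the threshold held under all alternatives run. The lowest adjusted p of any member was 0.0573, for Bmp2 without wild-type pool 1. The 4 at an unadjusted p under 0.05 became 1 with Xist in the fit and 3 with the pool number as a block, where 6.15% and 7.49% of all probe sets had such a p. The count stayed at 4 with an intensity trend, array weights and median centring, but its members changed. Acvr1 1416787_at then dropped out and Bmpr2 1434310_at came in (limma unadjusted p = 0.0235, 0.0324 and 0.0439). With 1 pool left out those at such a p numbered 3 to 6, against 7.31% to 11.2% of all. Without wild-type pool 2 or any 1 null pool, 6 of the 22 had separated pools. That is 27.3%, against 22.8% to 26.5% of all probe sets in those fits. There were 9 without wild-type pool 1 and 10 without wild-type pool 3, against 23.9% and 28.4% of all probe sets. Bmp4, Bmp6, Gdf10, Bmp2 and the separated receptor probe sets kept their sign; of the 22, at most 6 turned under any 1 setting, all with small changes. All called probe sets numbered 38, against 94 with an intensity trend, 69 with array weights, 20 above the median level, 14 with the replicate block, 9 with Xist, 99 at an adjusted p under 0.1 and 13 to 38 with 1 pool left out. The 1 pathway gene called became 0 with the block and with Xist and 0 to 2 with 1 pool left out; Grem1 had an adjusted p of 0.0907 with the block. Causes were not tested. Near-background signal limits what Bmp6 can show.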

Other observations

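The wild-type SD was larger than the null SD in 15 of the 22 probe sets, or 68.2%, against 51.4% of all probe sets; several of the 22 read the same gene, and the difference was not tested. The median SD of the 22 was 0.14 in wild-type and 0.082 in null pools, against 0.094 and 0.093 for all probe sets. Wild-type pool 1 was the lowest of the 6 pools in 11 of the 22, or 50%, against 22.8% of all probe sets. These 11 were the probe sets of Bmp2, Bmp6 and Gdf10, all 3 of Bmp5, 2 each of Bmp7 and Acvr1, and 1 of Bmpr1a.

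Gdf10, Bmpr1a and Bmp4 lie on chromosome 14, Bmp2, Bmp7 and Acvr1 on chromosome 2 with Lmx1b, Bmpr2 on chromosome 1, Bmp5 on chromosome 9 and Bmp6 on chromosome 13. Over all genes 57.0% were higher in null pools, the median change was 0.017 and 9.8% had an unadjusted p under 0.05. Of the 10 measured genes on either side of Gdf10, 16 of 20 were higher in null pools, with a median change of 0.062, and around Bmpr1a, which shares some of these neighbours, 18 of 20 were higher, with a median of 0.10. Around Bmp4, 12 of 20 were lower, with a median of -0.048. Among the 20 neighbours of each of the 9 genes 0 passed the gene-level limma threshold, and 2 to 5 had an unadjusted p under 0.05. Acvr1 lay 83 measured genes from Lmx1b, and around it 11 of 20 were higher.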
